A study of Mus musculus with 12 samples.

Results

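Mouse primordial germ cells of 2 groups at embryonic day 13.5, named E13.5m and E13.5f, were set side by side gene by gene. The members were the 11184 autosomal genes, of 22552 rows in each deposited table, whose test against E11.5 cells was completed for both groups. Of these, 10868 had a level above 0 in all 3 groups and a standard error (SE) and were tested; the other 316 had no SE. A further 1404 autosomal rows were completed in 1 of the tables only and 8872 in neither.

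All cells were wild-type germ cells of C57BL/6 embryos. The libraries behind E11.5 (2 libraries) and E13.5m (3 libraries) were made from 400 to 5000 cells each. The design text lists E13.5f in triplicate, and no library title carries that name. The only other E13.5 wild-type libraries are 3 whose titles give no sex, made from 500 to 2000 cells; their pooled column in a separate table followed the E13.5f column with a median ratio of 1.04 (5th to 95th percentile 0.981 to 1.06 over 9308 genes). Whether E13.5f holds those libraries is not stated, so sex and library set cannot be told apart in anything that follows.

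The sex in the group names was followed by Y-linked genes: Eif2s3y reached 264 FPKM in E13.5m against 0.178 in E13.5f. FPKM (sequenced fragments relative to transcript length and library size) is a level per length, here 1 pooled value per group without a spread between libraries. Sequencing depth is unknown. Errors are SEs of log2 ratios that the deposited test statistics imply. The labels do not say whether replicate libraries were made from different embryos; p-values therefore reflect variation among the libraries alone, possibly technical. E13.5m was put on the scale of the E13.5f table by the factor 0.976 that separates their E11.5 columns.

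Germ cells reach the gonad with the same potential in both sexes and are then directed by the surrounding tissue. In an ovary retinoic acid and bone morphogenetic proteins (BMPs) act on them, the gatekeeper gene Stra8 is switched on and the cells enter meiosis. In a testis retinoic acid is broken down, Nodal signalling is switched on for a short time inside the germ cells, Nanos2 is induced and the cells stop dividing. Lefty1 and Lefty2 are secreted inhibitors of Nodal that Nodal itself induces, Tdgf1 (Cripto) is its co-receptor, Rec8 is a meiotic cohesin subunit and Id1 is a direct BMP target.

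Promoters from RefSeq (build GRCm38.p6) show the kinds of sequence through which these signals are known to reach genes. Of the 14 genes that passed the test below, 6 had an entry in the promoter table. Stra8, the known retinoic acid target of the comparison, is shown first, then Rec8 and Tdgf1, which passed in opposite directions. Each run is the 250 bases before the start site on the gene's own strand. The windows are chr6:34920698-34920947 (plus strand) for Stra8, chr14:55617916-55618165 (plus strand) for Rec8 and chr9:110946159-110946408 (minus strand) for Tdgf1. Capitals mark the retinoic acid receptor core motif AGGTCA in the first and, in the third, the SMAD motif CAGAC and the FOXH1 motif TGTNNATT, each searched on both strands; in Rec8 the motif AGGTCA has no match and no base is in capitals.
Stra8: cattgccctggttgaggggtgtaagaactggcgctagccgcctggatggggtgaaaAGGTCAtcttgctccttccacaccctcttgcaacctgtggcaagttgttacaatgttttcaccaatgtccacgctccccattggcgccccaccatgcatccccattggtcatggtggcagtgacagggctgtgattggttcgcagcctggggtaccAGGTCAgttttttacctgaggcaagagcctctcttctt
Rec8: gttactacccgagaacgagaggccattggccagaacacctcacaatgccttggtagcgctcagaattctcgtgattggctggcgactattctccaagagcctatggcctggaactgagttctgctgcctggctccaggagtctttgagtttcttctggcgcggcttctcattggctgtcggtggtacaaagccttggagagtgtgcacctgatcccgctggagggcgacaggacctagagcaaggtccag
Tdgf1: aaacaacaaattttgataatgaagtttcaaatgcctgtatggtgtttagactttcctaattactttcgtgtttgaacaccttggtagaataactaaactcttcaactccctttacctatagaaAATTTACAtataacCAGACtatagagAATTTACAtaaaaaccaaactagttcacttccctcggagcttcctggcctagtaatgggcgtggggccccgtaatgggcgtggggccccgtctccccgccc
The Stra8 window holds AGGTCA at 194 and at 38 bases before the start site, counted to the first base of the match. The Tdgf1 window holds TGTNNATT at 127 and 101 bases and CAGAC at 113 bases before the start site, and no match overlaps another. In lower case, the BMP SMAD motif GGCGCC is in the Stra8 window at 112 bases, and the E-box CANNTG is in the Rec8 window at 45 and in the Tdgf1 window at 223 bases. The 5 motifs had no other match in these windows. Such letters are common: AGGTCA is in 14%, TGTNNATT in 10.9%, CAGAC in 42.2%, GGCGCC in 9.59% and CANNTG in 66.2% of 32851 windows of this length. A match describes the sequence and is not a measured binding site.

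Between the groups 10 genes passed as higher in E13.5m (0.092% of those tested) and 4 as higher in E13.5f (0.0368%), at a Benjamini-Hochberg adjusted p under 0.05 in a normal two-sided test. Higher in E13.5m were the Nodal pathway genes Lefty1, Lefty2 and Tdgf1, the death gene Pmaip1, and Krt17, Irgm1, 2410004A20Rik, Dgka and Lrrfip1, 9 of the 10. Higher in E13.5f were Rec8, Id1, the polyamine oxidase gene Smox and 8430427H17Rik. The test needed a log2 difference of 3.14, or 8.84-fold, at the median SE of 0.78, so smaller differences were mostly not detectable. At an unadjusted p under 0.05, 131 genes (1.21%) were higher in E13.5m and 255 (2.35%) in E13.5f. Differences of 2 times or more numbered 549 (5.05%) and 1567 (14.4%). With each difference taken relative to the median over genes, the split of genes that passed became 15 and 1, and Rec8, Id1 and 8430427H17Rik no longer passed.

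Most autosomal genes lay close together in the groups. Of the tested genes 80.5% were within 2 times of each other. The middle 50% of log2 E13.5m over E13.5f ran from -0.65 to 0.15 around a median of -0.22, and 66.1% of genes were lower in E13.5m. All later values are on the scale set by E11.5 and are read against that median.

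**Figure D1:**
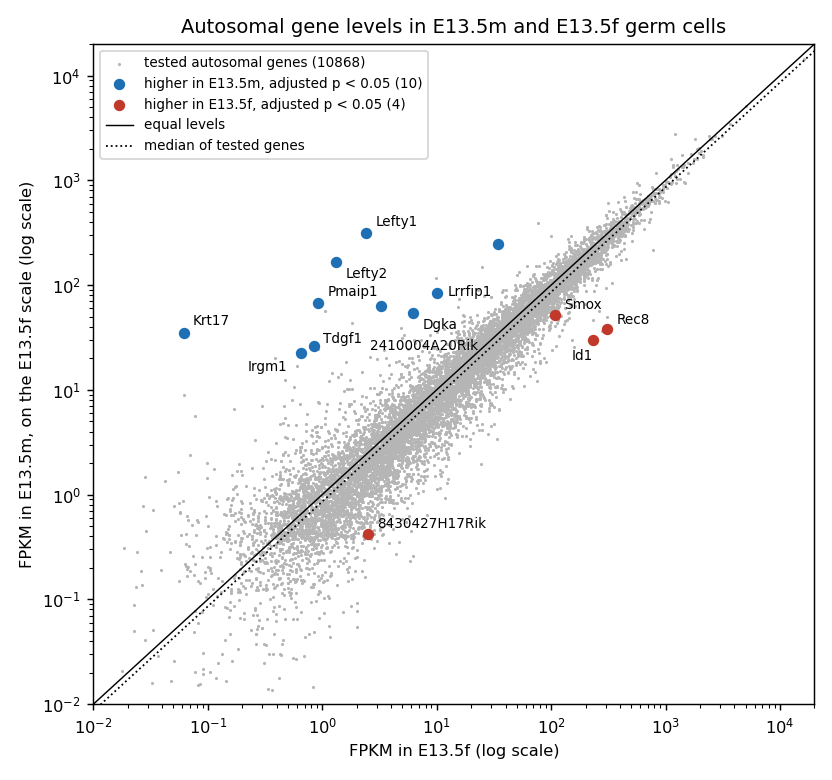
FPKM of 10868 tested autosomal genes in E13.5f (horizontal, log scale) and E13.5m (vertical, log scale, on the E13.5f scale), with 1 point per gene, a solid line of equal levels and a dotted line at the median. The 10 genes that passed as higher in E13.5m lie far above the lines, among them Lefty1 at 312 against 2.43 FPKM and Krt17 at 35.2 against 0.0619 FPKM; 3 of the 4 that passed in the other direction stand above 100 FPKM in E13.5f.

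Each group had also been compared with E11.5 by the authors. Of 11821 autosomal rows with a completed test, their deposited table called 339 higher (2.87%) and 219 lower (1.85%) in E13.5m, and of 11951 it called 1066 higher (8.92%) and 316 lower (2.64%) in E13.5f. Both comparisons share the E11.5 libraries.

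Lefty1 (chromosome 1, 182865170 to 182868532, build mm9) stood at 6.23 FPKM at E9.5, 37.2 at E11.5, 312 in E13.5m and 2.43 in E13.5f. The log2 difference between the E13.5 groups was 7.01 ± 0.82 (SE), 129-fold, with an adjusted p of 1.25e-13. Against E11.5 the 2 groups moved in opposite directions: the authors' deposited table gives a q-value of 3.35e-08 for the rise in E13.5m and 1.03e-06 for the fall in E13.5f. Lefty2 (chromosome 1, 182823250 to 182829233) differed as much but by another route. It stood at 129 FPKM at E11.5, 167 in E13.5m and 1.33 in E13.5f, a difference of 6.98 ± 0.83 (SE, adjusted p 2.52e-13). Only its fall in E13.5f was called against E11.5, and the ratio of E13.5m to E11.5 was 0.37 ± 0.47 (SE) in log2.

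The transcripts of Lefty1 and Lefty2 are 91.5% identical over 1155 aligned bases in GENCODE, with identical runs of up to 140 bases. Of all 50-base windows of Lefty1, 17.9% also occur in Lefty2. How reads common to both genes were assigned is not given in the sources used here, so the split of signal between them is uncertain; either gene's E13.5f level was under 3 FPKM.

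Tdgf1 (chromosome 9, 110842112 to 110848662) followed the route of Lefty2. It stood at 37.8 FPKM at E11.5, 25.9 in E13.5m and 0.845 in E13.5f, and differed by 4.94 ± 0.99 (SE, adjusted p 0.00106). It was near its E11.5 level in E13.5m and at the low end in E13.5f. The ligand gene Nodal was low in both groups at 0.193 FPKM in E13.5m and 0.0391 in E13.5f, and its difference of 2.30 ± 2.49 (SE) did not pass.

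Around these genes the rest of the pathway did not follow as a block. Of 22 listed Nodal and activin genes 15 were tested; the 3 just described passed as higher in E13.5m and none as higher in E13.5f, and the median difference was 0.05 in log2(FPKM + 1), against -0.18 over all tested genes. Over its members at 1 FPKM or more in both groups the median was -0.22. The receptor genes Acvr1b and Acvr2b and the signal carriers Smad2, Smad3 and Smad4 differed by between -0.41 and 0.38 in log2, all within 1 SE. Foxh1, the DNA-binding partner of SMADs, was at 77.8 FPKM in E13.5m and 156 in E13.5f, a difference of -1.01 ± 0.65 (SE) that did not pass. Furin, a protease that matures the Nodal precursor, was at 2.36 against 6.49 FPKM (-1.46 ± 0.86 SE), which did not pass either.

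Tgif1, a co-repressor of SMADs, had no completed test in either table and was no member. It was at 15.1 FPKM at E11.5, 141 in E13.5m and 44.1 in E13.5f. These levels have no error, and the gene was picked out after its values were seen.

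**Figure D2:**
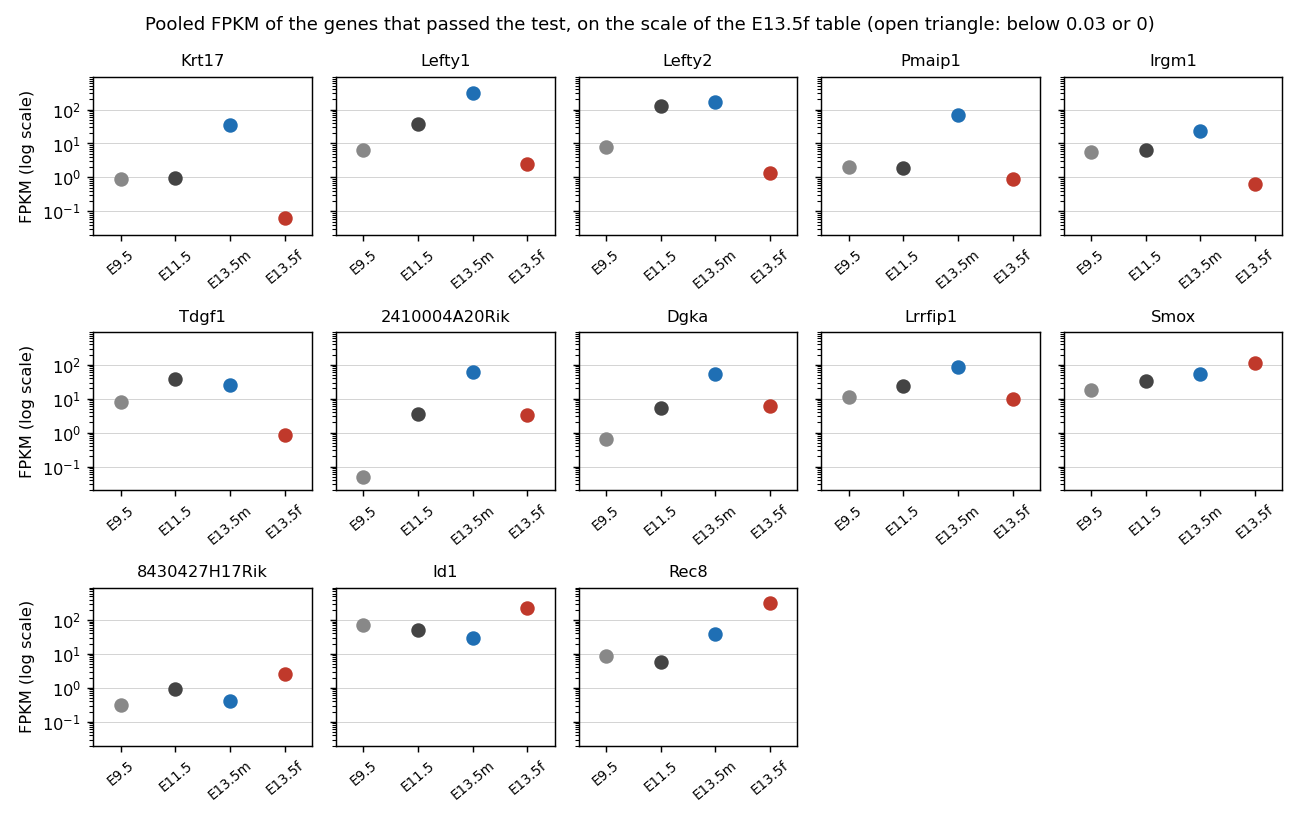
Pooled FPKM (vertical, log scale) of 13 genes that passed, in E9.5, E11.5, E13.5m and E13.5f cells on the scale of the E13.5f table, with 1 panel per gene and 1 point per group. Lefty1 and Irgm1 lie above E11.5 in E13.5m and below it in E13.5f, Lefty2 and Tdgf1 are near their E11.5 level in E13.5m and low in E13.5f, and Krt17 and Pmaip1 are high in E13.5m.

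The remaining genes that passed as higher in E13.5m are given by their levels in the same order of groups. Pmaip1 (Noxa, a BH3-only gene that promotes cell death) stood at 1.94 FPKM at E11.5, 67.5 in E13.5m and 0.919 in E13.5f, a difference of 6.20 ± 0.99 (SE, adjusted p 1.58e-06). The level was high in E13.5m alone. Krt17, a keratin gene (chromosome 11, 100117531 to 100122303), went from 0.934 FPKM at E11.5 to 35.2 in E13.5m and 0.0619 in E13.5f. Its difference of 9.15 ± 1.98 (SE, adjusted p 0.00487) had a 95% interval from 5.26 to 13.04, wide because the E13.5f level is close to 0.

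Dgka, a diacylglycerol kinase gene, and 2410004A20Rik (current symbol Khdc3, known for its part in the maternal complex of the egg and early embryo) were also high in E13.5m alone. Dgka stood at 5.37 FPKM at E11.5, 54.3 in E13.5m and 6.23 in E13.5f (3.12 ± 0.75 SE, adjusted p 0.0342). 2410004A20Rik stood at 3.52, 62.5 and 3.23 FPKM in the same order (4.27 ± 0.93 SE, adjusted p 0.00487).

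Irgm1, an interferon-induced GTPase gene, and Lrrfip1, which encodes a nucleic acid-binding protein, joined Lefty1 as the autosomal genes called in opposite directions against E11.5 in the authors' deposited table. Irgm1 stood at 6.61 FPKM at E11.5, 22.6 in E13.5m and 0.656 in E13.5f (5.11 ± 1.0 SE, adjusted p 0.00072). Lrrfip1 stood at 23.5 FPKM at E11.5, 84.8 in E13.5m and 10.1 in E13.5f (3.07 ± 0.58 SE, adjusted p 0.000291).

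Rec8 (chromosome 14, 56237003 to 56244232), whose promoter is printed above, was higher in E13.5f. It stood at 5.63 FPKM at E11.5, 37.8 in E13.5m and 309 in E13.5f, a log2 difference of -3.04 ± 0.76 (SE, adjusted p 0.0457). Both groups were above E11.5: the authors' deposited table calls a rise of 2.75 in E13.5m and of 5.78 in E13.5f. Stra8 rose from 0.205 FPKM at E11.5 by that table in both groups, to 38.1 in E13.5m and 288 in E13.5f. Its difference of -2.92 ± 1.64 (SE) had an unadjusted p of 0.0756 and a 95% interval from -6.14 to 0.30, so it did not pass although the levels differ about as much as those of Rec8. The adjusted p of Rec8 was 0.0555 without scaling of E13.5m, 0.0911 centred on the median difference, 0.0577 at 1 FPKM or more and 0.104 with no SE below the median, so it did not pass in these settings.

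Meiotic genes as a list lay towards E13.5f. Of 35 tested members 1 passed, Rec8, and 29 had a negative difference, as had 66.1% of all tested genes. By 2 times or more 15 were higher in E13.5f (42.9%, against 14.4% of all tested) and 1 in E13.5m (2.86%, against 5.05%). The median was -0.73, against -0.18 for all tested genes. Dmc1, the meiotic recombinase gene, stood at 9.59 FPKM in E13.5m and 32.1 in E13.5f (-1.74 ± 0.85 SE). The axis gene Hormad1 stood at 74.6 and 147 FPKM, and the synaptonemal complex gene Syce1 at 160 and 328. Gm1564 (current symbol Meioc), which sustains meiotic prophase, stood at 4.63 and 22.5 FPKM with an SE of 1.87. None of these 4 passed. Sycp3, an axis component without a completed test in either table, was listed at 182 and 410 FPKM. The member on the E13.5m side was 4930506M07Rik, at 6.99 and 1.72 FPKM (2.03 ± 0.91 SE, unadjusted p 0.0268), which did not pass. Trip13, Mnd1 and Mlh3 differed by at most 0.29 in log2.

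In the oogenesis list of transcription factors and related genes none of 13 tested members passed and the median was -0.55. Figla, which drives oocyte genes, was at 1.95 FPKM in E13.5m and 6.72 in E13.5f with an SE of 2.11. Sohlh2, a helix-loop-helix factor gene of early oocytes, was at 176 and 310 FPKM. Zglp1, which acts with BMP signals in the oogenic programme, was at 56.7 and 104 FPKM (-0.88 ± 0.75 SE).

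Id1 (chromosome 2, 152562010 to 152563146) stood at 49.7 FPKM at E11.5, 29.7 in E13.5m and 233 in E13.5f, a difference of -2.97 ± 0.73 (SE, adjusted p 0.0395). The rise in E13.5f was called against E11.5 in the authors' deposited table and the value in E13.5m was not. The adjusted p of Id1 was 0.0808 centred on the median difference, 0.0522 at 1 FPKM or more and 0.122 with no SE below the median, so it did not pass there. Other BMP response genes lay on the same side without passing. Msx2 stood at 10.9 and 58.2 FPKM in E13.5m and E13.5f (-2.42 ± 0.72 SE, adjusted p 0.237). Id2, an inhibitor of helix-loop-helix factors like Id1, stood at 17.9 and 79.9 FPKM (-2.16 ± 0.76 SE), and Gata2 at 26.3 and 109 FPKM (-2.06 ± 0.64 SE). Msx1, not completed in the E13.5m table, was listed at 35.6 and 208 FPKM.

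Over the BMP list 1 of 17 tested genes passed. An unadjusted p under 0.05 was found for 6 as higher in E13.5f (35.3%, against 2.35% of all tested). It was found for 1 as higher in E13.5m (5.88%, against 1.21%). Differences of 2 times or more were found for 9 on the E13.5f side (52.9%, against 14.4%). On the E13.5m side 1 was so (5.88%, against 5.05%). The median of -1.18 was the lowest of the 17 programme lists. Among its receptors Acvr1 differed by -1.88 ± 0.84 (SE) and Bmpr1a by -0.53 ± 0.72 (SE), and the signal carrier gene Smad1 differed by 0.44 ± 0.76 (SE). The ligand gene Bmp4 went the other way, at 38.4 FPKM in E13.5m and 11.6 in E13.5f (1.73 ± 0.80 SE, unadjusted p 0.0309).

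Retinoic acid genes leaned the same way as BMP genes, with 0 of 12 tested passing, 6 at 2 times or more higher in E13.5f (14.4% of all tested genes were), 1 higher in E13.5m (5.05%) and a median of -0.80 against -0.18 over all tested genes. The binding protein gene Crabp1 stood at 18.3 and 72.1 FPKM (-1.98 ± 0.85 SE) and Rdh10, an enzyme that makes retinaldehyde, at 2.99 and 9.74 FPKM. The receptor gene Rara, not completed in either table, was listed at 45 and 35.6 FPKM.

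**Figure D3:**
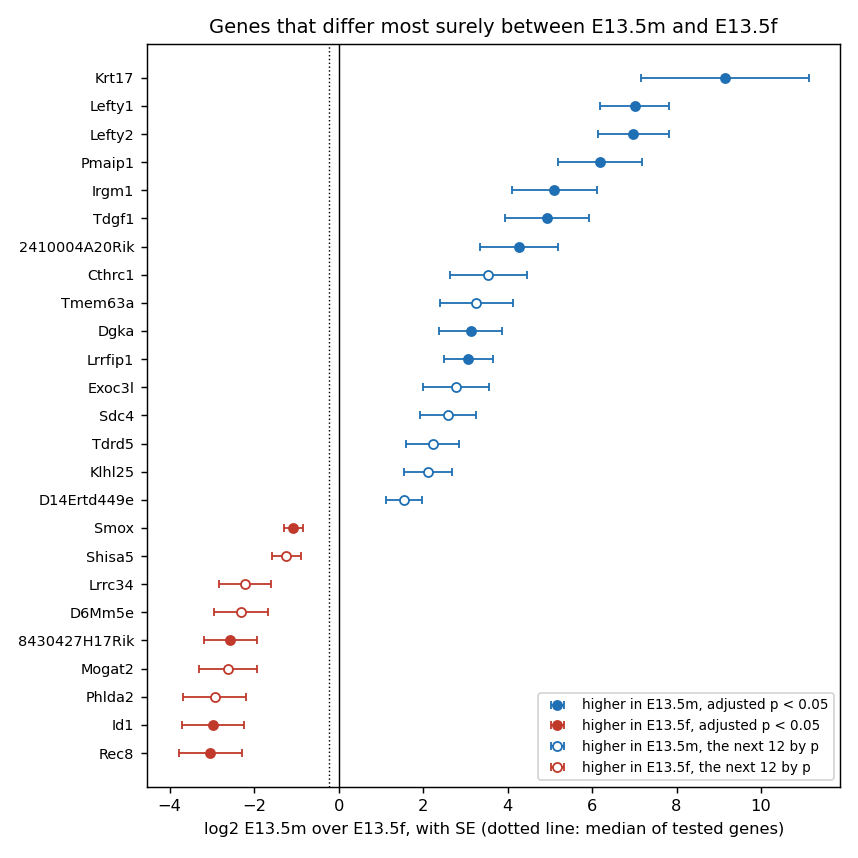
Log2 E13.5m over E13.5f with its SE (horizontal) for 13 genes that passed (filled) and the next 12 by p (open), ordered by the difference, with a solid line at 0 and a dotted line at the median over genes. Lefty1 at 7.01 and Krt17 at 9.15 are far to the right with unlike errors, and Smox at -1.07 is nearest to 0.

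Smox (chromosome 2, 131317598 to 131350919), which oxidises spermine, passed with the smallest difference because its SE of 0.22 was the lowest of all tested genes. It stood at 33.7 FPKM at E11.5, 51.9 in E13.5m and 109 in E13.5f, a difference of -1.07 ± 0.22 (SE, adjusted p 0.00106). Over the 10 tested polyamine genes, Smox included, the median was 0.11. By 2 times or more 2 were higher in E13.5m (20%, against 5.05% of all tested). In E13.5f 1 was so, Smox (10%, against 14.4%). Srm, which makes spermidine, stood at 325 and 216 FPKM, and Odc1, the first enzyme of the pathway, at 63.0 and 60.9 FPKM. 8430427H17Rik (current symbol Nol4l) was the low gene of the 4, at 0.931 FPKM at E11.5, 0.422 in E13.5m and 2.50 in E13.5f (-2.56 ± 0.62 SE, adjusted p 0.0342).

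Just outside the threshold on the E13.5f side was Phlda2, an imprinted gene that limits placental growth, at 95.9 FPKM at E11.5, 36.5 in E13.5m and 278 in E13.5f. Its difference was -2.93 ± 0.75 (SE) with an adjusted p of 0.061. The nearest on the other side were Cthrc1, a secreted protein gene, at 116 and 9.95 FPKM in E13.5m and E13.5f (adjusted p 0.0700), and Sdc4, a heparan sulfate proteoglycan gene, at 148 and 24.7 FPKM (adjusted p 0.0710). By comparison Rec8, just inside, had an adjusted p of 0.0457.

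Phlda2 lies in a cluster of imprinted genes on distal chromosome 7. The adjacent Slc22a18 stood at 3.38 FPKM in E13.5m and 33.8 in E13.5f (-3.32 ± 0.98 SE), and H19, the non-coding RNA gene of the same arm, at 3.73 and 15.1 FPKM (-2.02 ± 0.88 SE). Cdkn1c and Igf2 had no completed test in the E13.5f table and were listed at 65.8 and 145 FPKM and at 2.15 and 9.34 FPKM. Lsp1, also in the region, stood at 0.233 and 5.88 FPKM (-4.66 ± 1.73 SE). The 12 tested genes there started from 1126 kb before to 135 kb after the left end of Phlda2. Of these, 4 (Phlda2, Slc22a18, H19 and Lsp1) had an unadjusted p under 0.05 as higher in E13.5f. Of all tested genes 2.35% did. The other 8 differed by between -0.94 and 2.15 in log2. Among them were Nap1l4 at 372 and 494 FPKM and Cd81 at 71.1 and 93.9 FPKM. Ascl2 of the region lay on the E13.5m side, at 26.3 and 16.8 FPKM (0.64 ± 0.91 SE). This region was also picked out after its values were seen. It was set around Phlda2, which is counted in it, with unequal sides, so its share of genes is no test.

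**Figure D4:**
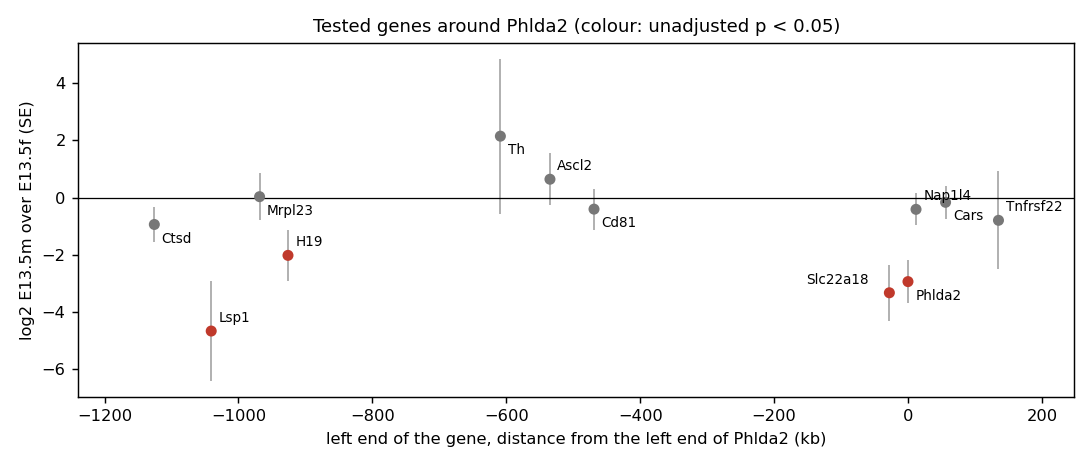
Log2 E13.5m over E13.5f with its SE (vertical) of 12 tested genes by distance in kb from the left end of Phlda2 (horizontal), coloured where the unadjusted p is under 0.05. Slc22a18, Phlda2, H19 and Lsp1 lie at -2.02 or lower, and the others between -0.94 and 2.15.

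Of 19 tested imprinted genes none passed, 8 were 2 times or more higher in E13.5f (42.1%, against 14.4% of all tested) and 3 in E13.5m (15.8%, against 5.05%), with a median of -0.42. Mest, an imprinted hydrolase gene expressed from the paternal copy, was the clearest in the other direction, at 14.8 FPKM at E11.5, 89.7 in E13.5m and 22.9 in E13.5f (1.97 ± 0.67 SE). Its rise in E13.5m was called in the authors' deposited table.

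Of 14 tested genes of the male germ cell programme none passed. On the E13.5m side 3 were 2 times or more higher (21.4%, against 5.05% of all tested). There 2 had an unadjusted p under 0.05 (14.3%, against 1.21%). On the E13.5f side 0 were 2 times or more higher (14.4% of all tested were). An unadjusted p under 0.05 was found for 0 on that side (2.35% of all tested). The median was -0.02, which turned to 0.12 relative to the median over genes. Nanos2, which holds male germ cells out of meiosis, stood at 0.0611 FPKM at E11.5, 24.7 in E13.5m and 0.910 in E13.5f. Its difference of 4.76 ± 2.16 (SE) had an unadjusted p of 0.0277 and did not pass. Tdrd5, a piRNA pathway gene, stood at 22.8, 73.6 and 15.7 FPKM (2.23 ± 0.62 SE, adjusted p 0.141), and Nanos3 at 37.3, 36.3 and 17.0 FPKM. Other piRNA genes were near each other or somewhat higher in E13.5f, such as Mael at 295 and 442 FPKM (-0.58 ± 0.59 SE).

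Among pluripotency and germ cell identity genes 0 of 28 tested passed and the median was 0.01. Hesx1 and Otx2, homeobox genes also expressed in early epiblast and forebrain, stood apart from the rest. Hesx1 was at 0.225 FPKM at E11.5, 57.0 in E13.5m and 1.06 in E13.5f (5.75 ± 1.86 SE, adjusted p 0.404). Otx2 was at 0.635, 43.3 and 1.83 FPKM (4.56 ± 1.32 SE, adjusted p 0.199). Both were high in E13.5m alone, and their rise there was called in the authors' deposited table. Pou5f1, at 381 and 404 FPKM, and Nanog, at 82.9 and 82.2 FPKM, differed by -0.08 and 0.01 in log2. On the E13.5f side stood Alpl, the alkaline phosphatase gene used to stain germ cells, at 105 and 342 FPKM (-1.70 ± 0.64 SE), and Tcfap2c (current symbol Tfap2c), at 47.2 and 115.5 FPKM.

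Cell cycle genes were described in 2 lists. Of 21 tested mitosis genes none differed by 2 times, none had an unadjusted p under 0.05 and the median was 0.06. Ccnb1 was at 661 and 589 FPKM, Mki67 at 18.0 and 15.7 and Plk1 at 204 and 215. Of 20 tested genes of the G1 phase none passed either, 4 were 2 times or more higher in E13.5f (14.4% of all tested genes were) and 2 in E13.5m (5.05%), and the median was -0.36. Ccnd1, a G1 cyclin gene, stood at 10.1 and 39.4 FPKM (-1.96 ± 0.84 SE) and Cdkn2d, a CDK inhibitor gene, at 48.5 and 142 FPKM (-1.55 ± 0.54 SE). Cdkn1b, the p27 inhibitor gene linked with the arrest of male germ cells, was at 2.56 and 0.474 FPKM (2.43 ± 1.34 SE), which did not pass.

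Pmaip1 was the single member of 18 tested BCL2 family and apoptosis genes to pass. The list's median was 0.06. Of its members 4 were 2 times or more higher in E13.5f (22.2%, against 14.4% of all tested) and 1 in E13.5m (5.56%, against 5.05%). Mcl1, the survival protein that Noxa binds, was at 25.3 FPKM in both groups, and Bax, an effector of cell death, at 331 and 227 FPKM. Bbc3 (Puma) and Bmf, also BH3-only genes, were at 6.37 and 13.0 FPKM (-1.03 ± 0.85 SE) and at 3.31 and 6.87 FPKM. Perp, a membrane protein gene linked with cell death, was at 7.39 and 24.2 FPKM (-1.71 ± 0.84 SE, unadjusted p 0.0404) and did not pass.

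Several smaller sets held no gene that passed. Of 15 tested DNA methylation genes Gadd45a, a stress gene linked with demethylation, stood at 4.75 and 25 FPKM (-2.40 ± 0.96 SE), and Tet1 at 8.84 and 6.11 FPKM (0.53 ± 0.67 SE). The median of that list was -0.18, the value for all tested genes, and relative to the median over genes it was 0.02. Of 15 tested Wnt response genes 6 were 2 times or more higher in E13.5f (40%, against 14.4% of all tested) and 1 in E13.5m (6.67%, against 5.05%). The median of this list was -0.44. The 6 were led by Notum, a Wnt deacylase gene, at 8.20 and 43.8 FPKM. Of 12 tested FGF and ERK response genes the median was 0.33; the targets Dusp6 (45.3 and 29.6 FPKM) and Etv5 (49.3 and 34.6 FPKM) lay on the E13.5m side and the receptor gene Fgfr3 (1.38 and 7.90 FPKM) on the other. Of 18 tested glycolysis genes Ldha was the widest apart at 32.9 and 116 FPKM (-1.82 ± 0.67 SE; list median -0.17). Of 20 tested immediate early and stress genes Fos stood at 9.58 and 37.8 FPKM and Zfp36, a regulator of mRNA decay, at 10.4 and 2.61 FPKM (list median -0.21).

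**Figure D5:**
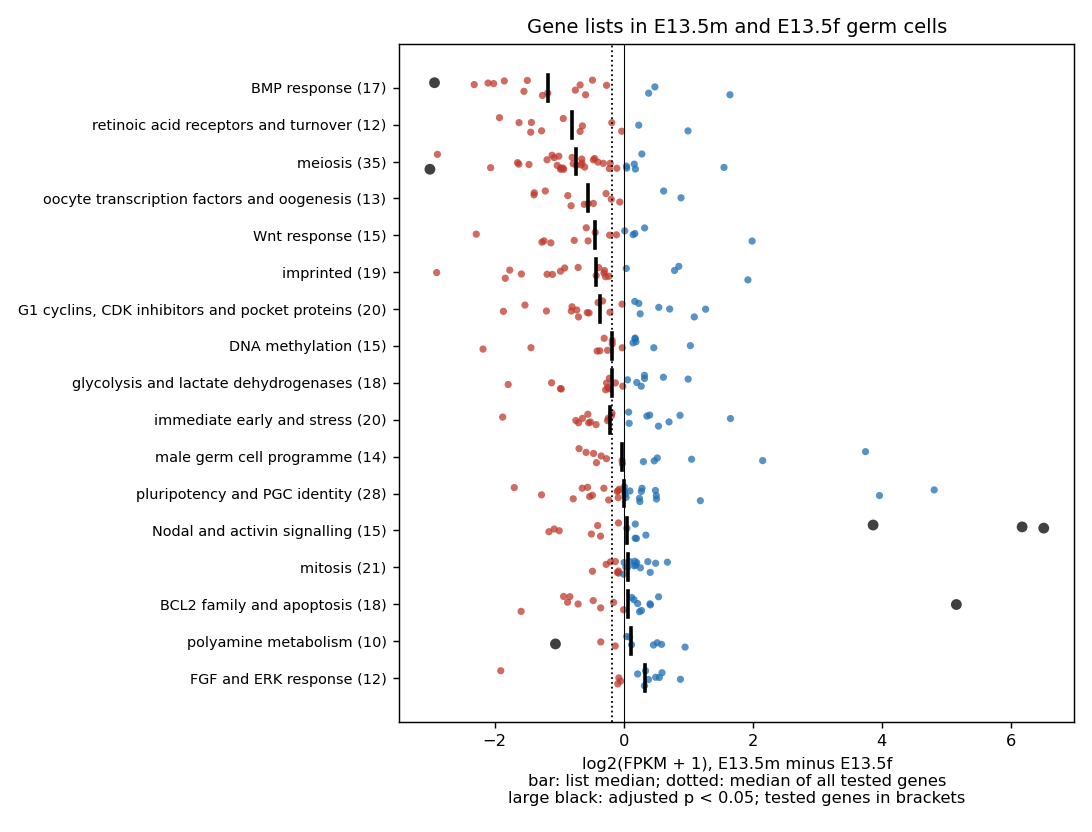
Difference of log2(FPKM + 1) between E13.5m and E13.5f (horizontal) for tested members of 17 gene lists (rows), with 1 point per gene, a bar at each list's median and a dotted line at the median of all tested genes. Black points are the genes that passed; BMP response, retinoic acid and meiosis genes have the lowest medians, at -1.18, -0.80 and -0.73.

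Marker lists of germ cells and other cells were summed in each group. The germ cell list summed to 5869 FPKM in E13.5m and 4810 in E13.5f, with none of its matched members at 0. Dppa3 alone gave 2756 and 1208 FPKM of these sums. Of the 12 tested germ cell markers 7 were lower in E13.5m and 5 higher (66.1% of all tested genes were lower). The list's median was -0.06. The male gonad soma list summed to 45.5 FPKM in E13.5m and 28.1 in E13.5f, with 12 and 4 of 21 genes at 1 FPKM or more. Cyp17a1 of steroid synthesis was at 9.76 FPKM in E13.5m and listed at 0 in E13.5f, Cyp11a1 at 5.57 and 0.0769, Amh of Sertoli cells at 3.92 and 0.136, and Sox9 at 0.544 and 0. Other male gonad soma genes went the other way, such as Aard at 7.36 FPKM in E13.5m and 18.9 in E13.5f. Cyp26b1 of that list was at 0.0340 and 1.27. Of its 7 tested genes 2 were 2 times or more higher in E13.5m (28.6%, against 5.05% of all tested). In E13.5f 2 were so (28.6%, against 14.4%). Blood markers summed to 44.9 and 6.38 FPKM, with Hbb-y at 14.5 and 1.22. The female gonad soma list summed to 13.5 and 18.9 FPKM and the endothelial list to 64.3 and 99.2.

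The mesenchyme list summed to 60.8 FPKM in E13.5m and 251 in E13.5f. Most of it came from Sparc (29.6 and 154 FPKM) and Vim (20.1 and 87.0 FPKM), which many cells express. Fn1 of this list was near equal at 9.22 and 9.07 FPKM. The epithelial list summed to 125 and 164 FPKM and included Krt18 at 21.2 and 68.6 FPKM and Lhx1 at 30.1 and 6.29 FPKM. The part of other cells in any difference above was not tested. In such pooled cells a smaller share of cells with a transcript and less transcript per cell cannot be told apart.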

How the data were processed

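Messenger RNA of germ cell samples was measured by low-input RNA sequencing, and samples were grouped by title and age. Per the submitters' processing notes, the stage tables name Bowtie, TopHat 1.3.1, Cufflinks 1.2.1, Cuffdiff 1.2.1 and build mm9. The FPKM values were made by the authors, who deposited 1 pooled value per group. The p-value and q-value of each gene are the authors' own, and the test statistic is a score deposited with them. Low levels are noisier after amplification from so few cells.

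E13.5m was scaled by 0.976, the median ratio of the E11.5 columns over 10626 rows above 1 FPKM (1st to 99th percentile 0.97615 to 0.97616). The SE of each log2 ratio to E11.5 was the ratio over its deposited statistic. The SE of the difference was the root of the summed squares; the E11.5 error counts in both, so the test is conservative. P-values were adjusted over 10868 genes. Coordinates are 1-based. List medians used log2(FPKM + 1), which understates low genes.

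The rule named every gene that passed, the 10 largest differences each way at 5 FPKM or more, up to 4 members per list, and genes called in opposite directions or at 0 in 1 group; other list members named here were picked after their values were seen. The members and the 25 lists (483 of 489 symbols matched) were chosen with earlier results of these data known. One gene that passed is not reported here. The difference test was run on simulated data whose errors were drawn from the same SEs, so that run cannot check the SEs. Alternatives were other scalings, minimum levels, thresholds, error models and the wild-type column. Tools were Biopython 1.88, matplotlib 3.10.9, scipy 1.17.1, pandas 2.3.3, numpy 2.4.6 and Python 3.11.15.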

Additional observations from a re-analysis of the deposited data

Results flagged for a closer look

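The difference between the E13.5 groups, each taken against E11.5, passed the test in 14 genes, 13 of them given here. On the log2 scale of E13.5m over E13.5f Krt17 stood at 9.15, Lefty1 at 7.01, Lefty2 at 6.98, Pmaip1 at 6.20, Irgm1 at 5.11 and Tdgf1 at 4.94. Smaller differences in the same direction were 2410004A20Rik at 4.27, Dgka at 3.12 and Lrrfip1 at 3.07. In the other direction were Smox at -1.07, 8430427H17Rik at -2.56, Id1 at -2.97 and Rec8 at -3.04.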

How the results depend on the processing

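The reported counts are 10 genes on the E13.5m side and 4 on the E13.5f side. Centred on the median difference they were 15 and 1, and without scaling of E13.5m 10 and 3, without Rec8. At 1 FPKM or more in both groups they were 6 and 1; fewer genes are tested there, and Irgm1, Krt17, Pmaip1 and Tdgf1 are left out by their E13.5f level and 8430427H17Rik by its E13.5m level; Rec8 (adjusted p 0.0577) and Id1 (0.0522) did not pass there. With 50 percent of the smaller squared SE given to the shared E11.5 error they were 46 and 49, and all 14 genes still passed. At a threshold of 0.01 they were 8 and 1, and on all chromosomes 13 and 4. With the wild-type column in place of E13.5f they were 14 and 7, where Krt17 had no row. That column may hold the same libraries as E13.5f and was used with the SEs of E13.5f, so it is no independent check. In an alternative chosen after seeing the data, no SE was allowed below the median; 7 and 0 genes passed, at that setting without Smox, Rec8 or Id1. Lefty1, Lefty2 and 2410004A20Rik passed in each of these settings. Paox, at -0.13 as reported, was 0.0691 when centred and 0.0196 with the wild-type column. The authors' calls of autosomal genes against E11.5, 558 for E13.5m and 1382 for E13.5f, became 269 and 642 at 0.01. The medians of 5 lists changed sign when centred. At 1 FPKM or more the Nodal median of 0.05 became -0.22, the male gonad soma median of 0.33 became -0.65 and the imprinted median of -0.42 became -0.91. The blood median became 2.81 and the mesenchyme median -2.06 at 1 FPKM or more. Where no cause is given, the cause was not tested. No paired analysis was possible because the tables hold 1 pooled value per group; for the same reason no replicate could be left out. Depth is unknown.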

Other observations

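Of members without an SE, 3 were listed at 0 in E13.5f and at 1 FPKM or more in E13.5m, and 4 the reverse. Gm12238 was the only one of them at 5 FPKM or more, at 18.3 FPKM at E11.5, 20.02 in E13.5m and 0 in E13.5f.

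Some genes outside the membership, chosen after their values were seen, also stood far apart. Etv1, an ETS factor gene, was at 6.98 FPKM at E11.5, 22.4 in E13.5m and 2.30 in E13.5f. Foxp4, a forkhead gene, was at 0.435, 6.61 and 0.279 FPKM. Higher in E13.5f were Boll, an RNA-binding protein gene of meiosis, at 8.31 FPKM in E13.5m and 25 in E13.5f, the growth factor gene Mdk at 21.8 and 125, and the imprinted gene Gnas at 55.2 and 196. Cyp26a1, which breaks down retinoic acid, was at 0.0605 FPKM in E13.5m and 2.20 in E13.5f, and Cyp26b1 of the same family at 0.0340 and 1.27. None of these has a test of the difference between the groups.

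Among tested members not in the lists, H2-K1, a class I histocompatibility gene, stood at 1.97 FPKM in E13.5m and 24.3 in E13.5f (-3.62 ± 1.21 SE, adjusted p 0.498). Tex101, a germ cell surface protein gene, stood at 49.3 and 306 FPKM (-2.63 ± 0.77 SE, adjusted p 0.212). Mogat2, an acyltransferase gene, stood at 25.8 and 158 FPKM (-2.62 ± 0.69 SE, adjusted p 0.0824). Cbr3, a carbonyl reductase gene, stood at 19.9 and 0.390 FPKM (5.68 ± 1.99 SE, adjusted p 0.615).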
